A study of Drosophila melanogaster with 24 samples.

Results

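The glutathione transferase (*Gst*) and UDP-glycosyltransferase (*Ugt*) genes were examined in whole male flies of the *w1118* line. The members are all genes whose name in the deposited tables is *Gst* followed by a letter and a number, or *Ugt* followed by a number, which gave 34 *Gst* and 13 *Ugt* genes, 47 of the 12506 genes listed. Younger flies (0–7 d old) and older flies (20–27 d old) were sequenced after injury with the high-impact trauma (HIT) device or uninjured, and they were then kept for 4 hr on food or for 2 hr on water. Each of the 8 groups (injured and uninjured older food, older water, younger food and younger water) had 3 libraries, and all flies shared the *w1118* background and the molasses food on which they had been raised. Diet and time after injury differ together, so food and water stand here for food at 4 hr and water at 2 hr, and the parts of diet and time cannot be told apart.

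The value analysed for each gene is the authors' mean level in a condition, given as log2 CPM (counts scaled to a common library total) over the 3 injured and 3 uninjured libraries together. The columns of the same tables that compare injured with uninjured flies were not used, so no effect of injury is given, and its part in any difference between conditions was not tested. A mean over libraries carries no replicate spread, so the differences below have no error and no test. The older-minus-younger difference was measured in separate libraries on food and on water, and the food-minus-water difference in separate libraries at each age, so each difference is given in both sets. The age and the diet differences are drawn from the same 4 tables and are not set against each other.

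Glutathione transferases join glutathione to reactive compounds such as products of lipid peroxidation and insecticides, which makes them easier to export. In flies the delta (D) and epsilon (E) classes are large insect-specific groups, and the omega (O), sigma (S), theta (T) and zeta (Z) classes are shared with vertebrates. UDP-glycosyltransferases add a sugar to small lipophilic compounds, including plant toxins, hormones and pigments, and insects mostly use glucose. Several *Gst* genes are targets of the oxidative stress regulator Cnc, the fly counterpart of Nrf2, which Keap1 holds in check.

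The *Gst* genes comprised 10 of class D, 14 of class E, 3 of class O, 1 of class S, 4 of class T and 2 of class Z. The names of the *Ugt* genes gave 2 in class 35, 2 in class 36, 1 in class 37, 1 in class 58 and 7 in class 86. These numbers follow the older names of the tables, and all 13 *Ugt* members carry a different or differently spelled symbol in the current RefSeq annotation (*Ugt86Dd* is *Ugt35C1*, *Ugt86Da* is *Ugt302C1* and *Ugt36Bc* is *Ugt37D1*). The genes sit in runs of neighbors. All 10 class D genes listed lie close together on arm 3R, 10 class E genes lie together on arm 2R, the 3 class O genes adjoin each other on arm 3L, and 9 *Ugt* genes of classes 35 and 86 form a run on arm 3R. In the current annotation *GstE1* and *GstE10* overlap by 127 bases on opposite strands, *GstO2* and *se* by 61 and *GstE9* and *imd* by 40. The library kit does not mark strand, so reads from such an overlap cannot be assigned to either gene, and reads shared by similar neighbors in a run may have been divided between them.

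A total of 43 members, 32 *Gst* and 11 *Ugt*, were listed in all 4 conditions. The other 4 were at the low end of the tables. *GstD4* was listed only in older water, at 1.27 CPM. *GstD7* was listed only in younger flies, at 2.74 CPM on food and 2.17 CPM on water. *Ugt86Dg* was likewise listed only in younger flies, at 1.63 CPM on food and 1.13 CPM on water. *Ugt86Di* had 2.90 CPM in older food, 2.28 CPM in older water and 1.60 CPM in younger water, with no row in younger food. The tables hold genes that passed a filter on low values, so a missing row is no measurement of 0.

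The labels were checked against marker genes. All 6 male accessory gland genes and the 4 testis genes found were listed in every condition. Of 8 ovary and yolk genes, 1 was listed in older food, 2 in older water, 5 in younger food and 1 in younger water, and their sum was 15.6, 34.5, 164 and 12.6 CPM in the same order of conditions. Ovary and yolk RNA was therefore highest in younger food, and its part in the values of younger food was not tested.

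Levels per length differed widely among the members. *GstD1*, a delta enzyme known for breaking down DDT and widely used as a reporter of Cnc activity, had the highest mean of any member over the 4 conditions, 9.05 log2 CPM per kb of its longest transcript. The median over the *Gst* genes was 4.09 and over the *Ugt* genes 2.83 log2 CPM per kb. The *Gst* gene next in order was *GstS1*, the only sigma member, which is abundant in flight muscle (8.03 log2 CPM per kb). *GstE12*, *GstE1* and *GstE9* had means of 7.78, 7.73 and 7.66 log2 CPM per kb, which lie closer together than the levels of any of them over the conditions, so their order is not firm. *GstO3* led class O with 7.29 and *GstT4* led class T with 6.99 log2 CPM per kb. In class Z, which acts in tyrosine breakdown, *GstZ1* averaged 2.91 and *GstZ2* 2.81 log2 CPM per kb. *GstZ2* was above *GstZ1* in both water conditions, so their order is not firm either.

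**Figure D1:**
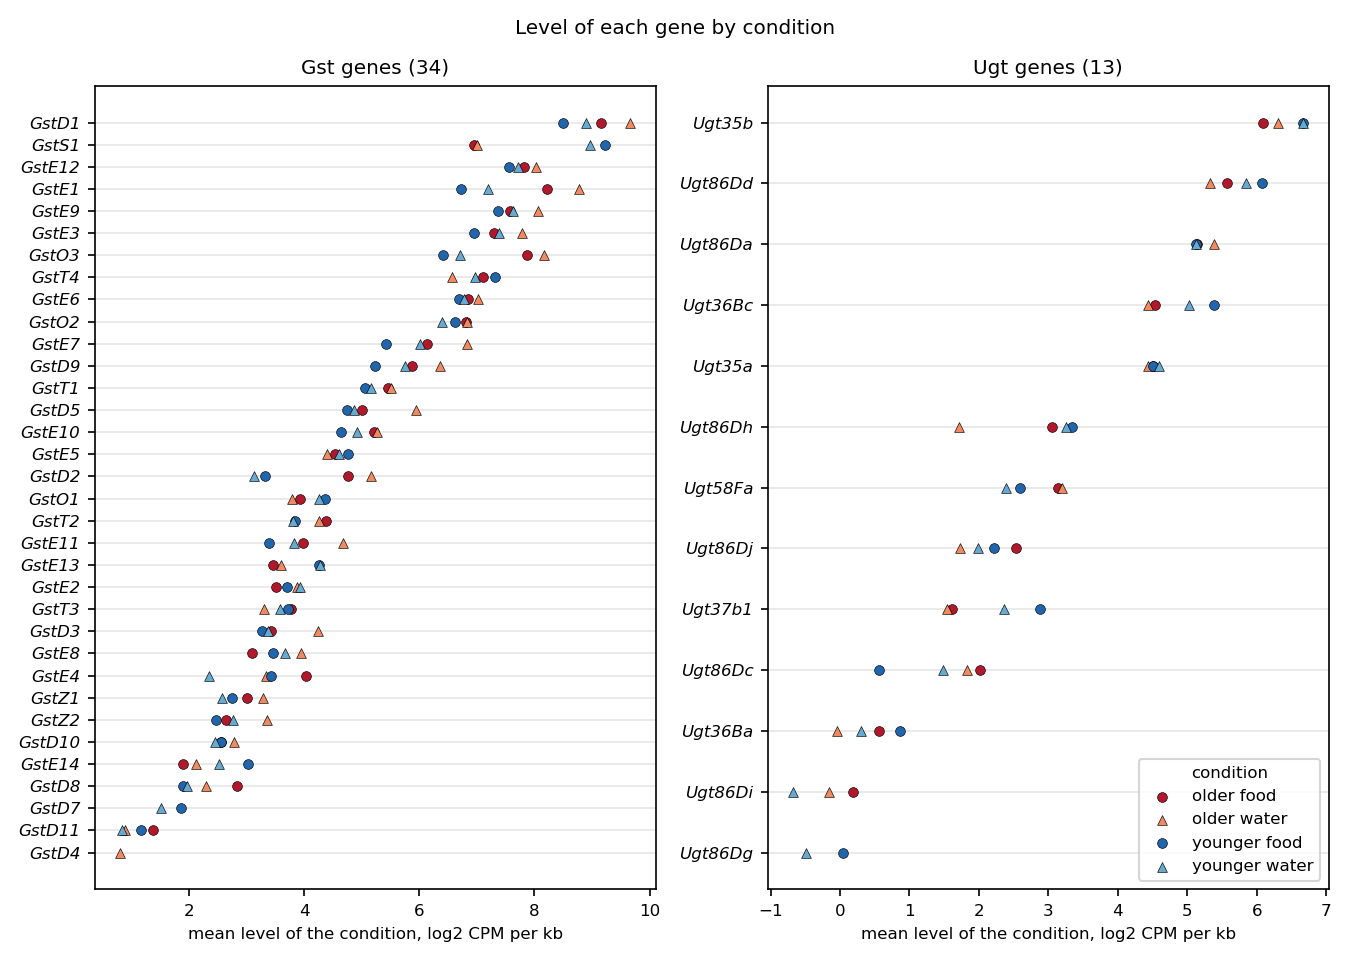
Mean level of each of the 34 *Gst* (left) and 13 *Ugt* genes (right) in each condition, in log2 CPM per kb of longest transcript, with genes ordered by their mean over conditions. Each point is the authors' mean of a condition without an error. *GstD1* and *GstS1* stand at the top of the *Gst* genes, and the points of *GstS1* lie about 2 log2 units lower in older than in younger flies.

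Among the *Ugt* genes 1 member led throughout, and those below it traded places between conditions. *Ugt35b*, described from the antenna, was highest in every condition, with 6.09 and 6.30 log2 CPM per kb in older food and older water and 6.67 in both younger conditions. *Ugt86Dd*, which has been linked to nicotine resistance in larvae, averaged 5.70, *Ugt86Da* 5.19, *Ugt36Bc* 4.84 and *Ugt35a* 4.51 log2 CPM per kb. *Ugt58Fa* and *Ugt37b1*, the single members of their classes, averaged 2.83 and 2.10 log2 CPM per kb. The lowest member listed in all conditions was *Ugt36Ba*, at 0.42 log2 CPM per kb.

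The leading *Gst* gene was not the same at both ages. In older flies *GstD1* was first on both diets, with 9.15 log2 CPM per kb on food and 9.66 on water, and *GstS1* was eighth (6.96 and 7.00). In younger flies *GstS1* was first, with 9.22 on food and 8.97 on water, and *GstD1* followed with 8.50 and 8.89. *GstE1* stood at rank 2 in older flies on both diets, against rank 7 in younger food and rank 6 in younger water. *GstO3* stood at rank 3 in older flies, against ranks 10 and 9 in younger flies on food and on water.

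Summed over the *Gst* genes, the level was 2482 CPM in older food and 3080 CPM in older water, compared with 2684 CPM in younger food and 2738 CPM in younger water. The older-minus-younger difference of this sum had opposite signs on the 2 diets. The makeup of the sum, however, differed between the ages on both diets. Class S gave 8.83% of it in older food and 7.31% in older water, compared with 39.1% in younger food and 32.2% in younger water. Without *GstS1* the sum was 2263 and 2855 CPM in older flies on food and on water, against 1636 and 1856 CPM in younger flies. Of the full *Gst* sum class E made up 43.3% and 45.7% in older flies, against 29.4% and 34.2% in younger flies, and class D 23.9% and 27.7%, against 14.4% and 18.0%. All classes share the same total, so a smaller part from class S by itself enlarges the parts of the others. In CPM class E summed to 1075 and 1407 in older flies on food and water, against 788 and 936 in younger flies. Shares of the sum without *GstS1* were not computed, so a shift toward class E or D among the remaining genes is not shown. The *Ugt* sum was 411 CPM in older food and 407 CPM in older water, compared with 534 CPM in younger food and 496 CPM in younger water.

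**Figure D2:**
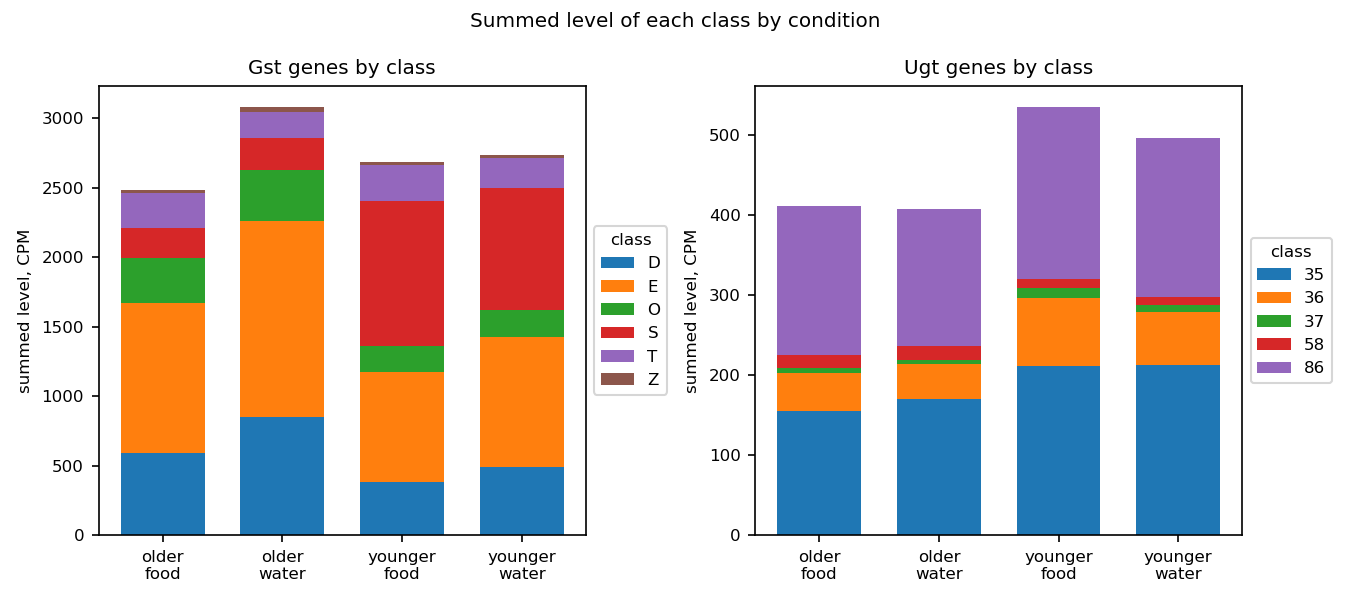
Summed level in CPM of the *Gst* classes (left) and the *Ugt* classes (right) in each condition, stacked from 0. The single gene of class S forms 8.83% and 7.31% of the *Gst* bars of older flies, against 39.1% and 32.2% of those of younger flies.

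The first comparison was between older and younger flies on the same diet. A member was counted when its level differed by more than 1.5-fold in the same direction on food and on water. By this rule 8 *Gst* genes were higher in older flies (25% of 32, against 11.4% of the 11457 genes listed in all conditions) and 2 were lower (6.25%, against 20.3% of all genes). Of the 11 *Ugt* genes 0 were higher and 2 were lower (18.2%). Without regard to size, 22 *Gst* genes were higher in older flies on both diets and 7 were lower, against 51.7% and 35.6% of all genes. For the *Ugt* genes these numbers were 3 and 6. The median difference of the *Gst* genes was 0.23 on food and 0.38 on water on the log2 scale, against 0.17 and 0.09 over all genes. For the *Ugt* genes the median difference was -0.29 on food and -0.33 on water. These tables were normalized separately, and when they were rescaled by a trimmed mean of log2 ratios, 3 *Gst* genes (*GstD2*, *GstE1* and *GstO3*) were higher by more than 1.5-fold on both diets (9.38%, against 8.31% of all genes so rescaled) and 2 were lower (6.25%, against 21.6%). The share of higher *Gst* genes was then near that of all genes. When each table was centered on its median, 9 *Gst* genes were higher (28.1%, against 18.2%) and 1 (*GstS1*) was lower (3.125%, against 18.9%).

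*GstD2*, *GstE1* and *GstO3* had the largest older-above-younger differences of the members on both diets together. *GstE1*, an epsilon enzyme that acts on aldehydes from lipid peroxidation, had 248 CPM in older food and 365 CPM in older water. In younger flies it had 88.3 CPM on food and 122 CPM on water. Its difference was 1.49 on food and 1.58 on water (log2), that is 2.81-fold and 2.98-fold. *GstO3*, an omega member next to *GstO2*, had 205 and 253 CPM in older flies on food and water, against 74.9 and 92.3 CPM in younger flies, a difference of 1.45 and 1.46. Both genes were higher in each older condition than in either younger one, an order of 4 means without a spread. The order within each diet follows from the counting rule. The share of all genes with the full order was not counted.

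*GstD2* had 20.1 CPM in older food and 26.2 CPM in older water, compared with 7.32 CPM in younger food and 6.48 CPM in younger water, a log2 difference of 1.46 and 2.01. *GstD1* differed less, with 478 and 683 CPM in older flies on food and water, against 305 and 399 CPM in younger flies (0.65 and 0.77). For both genes, too, both older means were above both younger ones, an order that the counting rule already sets within each diet. The other *Gst* genes counted as higher in older flies were *GstD9* (log2 difference 0.64 on food and 0.61 on water), *GstE4* (0.60 and 0.99), *GstE7* (0.71 and 0.81) and *GstE11* (0.59 and 0.85). *GstE4*, *GstE11* and *GstD9* lie just past the limit of 0.585 on the log2 scale in at least 1 diet.

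In contrast, *GstS1* had 219 CPM in older food and 225 CPM in older water, compared with 1048 CPM in younger food and 882 CPM in younger water. The difference was -2.26 on food and -1.97 on water, the largest in size of any member on food. *GstE13* was lower as well, with 11.7 and 12.9 CPM in older flies on food and water, against 20.4 and 20.7 CPM in younger flies (-0.81 and -0.68), and it fell short of 1.5-fold on 1 diet when the tables were centered. *GstE14* (*Noppera-bo*), which is needed to make ecdysteroids, had 3.77 and 4.37 CPM in older flies and 8.24 and 5.81 CPM in younger flies, a difference of -1.13 on food and -0.41 on water that did not reach the limit on water. In whole flies, fewer cells of a type and less RNA per cell cannot be told apart.

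The classes were also counted without regard to size, for which the shares over all genes were 51.7% higher and 35.6% lower. In class D, 7 of 8 genes were higher in older flies on both diets and 0 were lower on both, and *GstD10* had nearly equal levels on food (a difference of -0.002). In class E, 9 of 14 were higher on both diets and 4 were lower on both, shares near those of all genes. In class T the split was 2 against 1, and both class Z genes were higher on both diets by less than the limit on food (0.26 and 0.17).

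**Figure D3:**
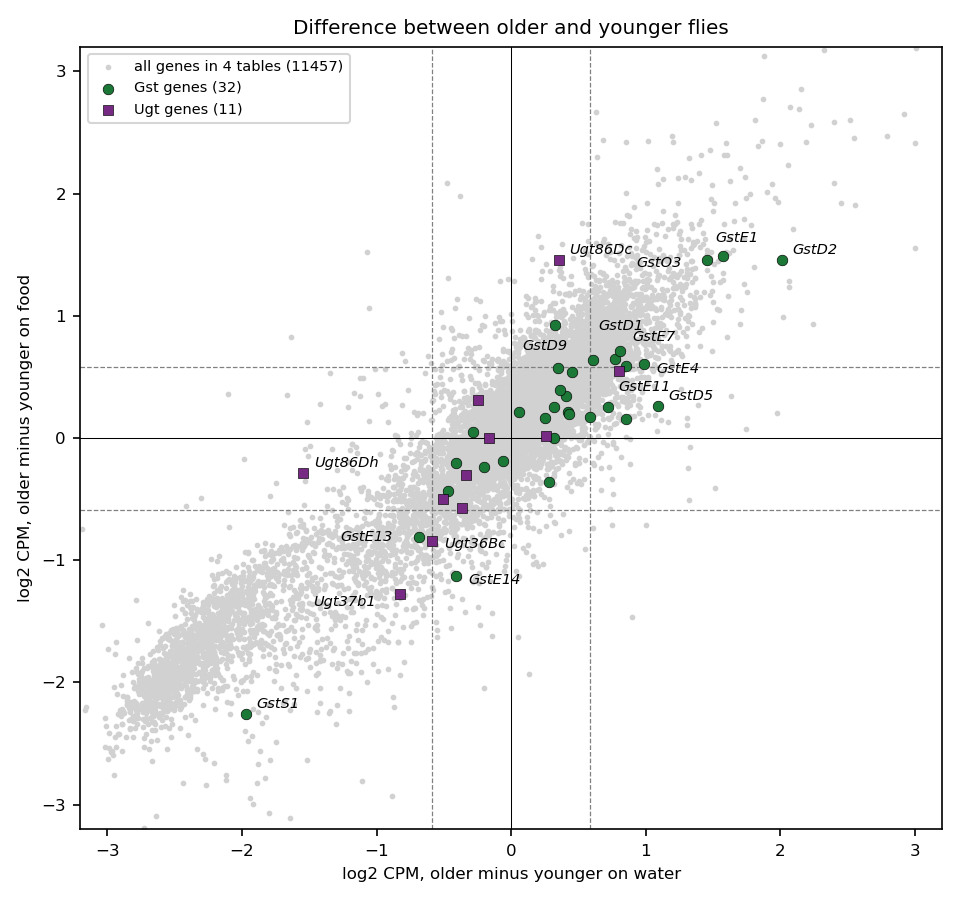
Older-minus-younger difference in log2 CPM on water (horizontal) and on food (vertical) for 32 *Gst* genes (circles), 11 *Ugt* genes (squares) and the 11457 genes listed in all conditions (gray, of which 52 lie outside the axes). Dashed lines mark a 1.5-fold difference. *GstE1*, *GstO3* and *GstD2* lie at the upper right and *GstS1* at the lower left.

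The *Ugt* genes lower in older flies by more than 1.5-fold on both diets were *Ugt36Bc* and *Ugt37b1*. *Ugt36Bc* had 45.4 CPM in older food and 42.1 CPM in older water, compared with 81.6 CPM in younger food and 63.3 CPM in younger water (-0.85 and -0.59). *Ugt37b1* had 5.29 and 5.05 CPM in older flies on food and water, against 12.8 and 8.94 CPM in younger flies (-1.27 and -0.82). For each gene both older means were below both younger ones, again without a spread, and the counting rule already sets this order within each diet. When the tables were centered on their medians, *Ugt36Bc* no longer reached 1.5-fold on both diets.

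The other abundant *Ugt* genes stayed within the limit on both diets and differed in direction. *Ugt35b* had 114 and 132 CPM in older flies on food and water, against 170.0 and 169.7 CPM in younger flies (-0.57 and -0.37). *Ugt86Dd* had 79.5 and 67.1 CPM in older flies, against 113 and 95.5 CPM in younger flies, a difference of -0.50 on food and -0.51 on water. *Ugt86Da* had differences of 0.02 on food and 0.26 on water, and *Ugt35a* of 0.00 and -0.16. *Ugt58Fa*, a less abundant gene, was higher in older flies, with 16.4 and 17.0 CPM in older flies and 11.3 and 9.75 CPM in younger flies (0.55 and 0.80).

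A pair of *Ugt* genes had the widest gaps between the age difference on food and that on water. *Ugt86Dh* had 16.8 CPM in older food and 6.64 CPM in older water, compared with 20.5 CPM in younger food and 19.4 CPM in younger water, so the level of older water stood apart from the other 3. *Ugt86Dc* had 6.47 CPM in older food and 5.69 CPM in older water, compared with 2.36 CPM in younger food and 4.45 CPM in younger water. The age differences on food and water were 1.26 apart on the log2 scale for *Ugt86Dh* and 1.10 for *Ugt86Dc*, and over all genes 95% of such gaps were within 0.819. These genes were picked as the widest gaps of the 43 members, so passing that bound is no result about them. The largest gap of a *Gst* gene was that of *GstD5*, -0.82, just past the same bound in size. Its level was 27.0 CPM in older food and 51.9 CPM in older water, compared with 22.5 and 24.4 CPM in younger flies on food and water.

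Marker genes of other tissues differed between the ages too. The 6 accessory gland genes summed to 1722 CPM in older food and 1622 CPM in older water, compared with 5063 CPM in younger food and 4106 CPM in younger water. The 4 testis genes summed to 435 and 283 CPM in older flies on food and water, against 1154 and 1155 CPM in younger flies. Malpighian tubule genes summed to 508 and 499 CPM in older flies, against 256 and 388 CPM in younger flies. Much of this difference came from *Uro*, with 236 and 273 CPM, against 84.7 and 199 CPM. *Irk3* and *salt* differed less, by 0.315 and 0.83 on food and by 0.189 and 0.284 on water (log2). The 5 midgut genes had 6454 and 3977 CPM in older flies, against 4006 and 4845 CPM in younger flies. The 3 neuronal genes found summed to 610.2 and 485 CPM in older flies, against 582 and 510.5 CPM in younger flies. Of 3 fat body genes 1 was listed in older food, 2 in older water and 3 in each younger condition, and their sums were 95.3, 155, 238 and 200.3 CPM in that order. The part of tissue makeup in the age differences was not tested.

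The second comparison set flies on food (4 hr) against flies of the same age on water (2 hr). More than 1.5-fold in the same direction at both ages, 1 *Gst* gene was higher on food (3.125%, against 2.04% of all genes) and 1 was lower (3.125%, against 0.829%), and 0 of 11 *Ugt* genes passed in either direction. Without regard to size, 18 of 32 *Gst* genes (56.25%) were lower on food at both ages, against 24.9% of all genes, and 7 (21.88%) were higher, against 45.9%. The share of all genes lower on food was 33.8% with centered tables and 36.0% after the trimmed mean, when 18 and 19 *Gst* genes were lower. Of the 11 *Ugt* genes 1 was lower and 6 were higher, which became 3 and 4 under either rescaling. The median difference of the *Gst* genes was -0.22 in older flies and -0.09 in younger flies, whereas all genes had medians of 0.15 and 0.03. Relative to those medians, 27 of 32 *Gst* genes were lower on food in older flies and 19 of 32 in younger flies.

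Most of the lower values on food came from class E, in which 11 of 14 genes were lower at both ages. *GstE7* was the gene past the limit, with 53.6 CPM on food and 86.7 CPM on water in older flies, and 32.7 CPM on food and 49.6 CPM on water in younger flies (-0.69 and -0.60). *GstE1* was lower on food by a log2 value of -0.56 in older and -0.47 in younger flies, *GstE3* by -0.48 and -0.42 and *GstE9* by -0.47 and -0.27. In class D, *GstD1* had differences of -0.52 in older and -0.39 in younger flies and *GstD9* of -0.48 and -0.51. *GstD5* and *GstD3* were lower on food mainly in older flies (-0.94 and -0.81), with differences of -0.12 each in younger flies. *GstS1* had differences of -0.04 and 0.25.

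*GstE4* was the class E gene past the limit in the other direction. It had 13.7 CPM on food and 8.46 CPM on water in older flies, and 9.03 CPM on food and 4.27 CPM on water in younger flies, a difference of 0.69 and 1.08. Of its neighbors, *GstE3* had negative values at both ages and *GstE5* had small positive ones (0.14 and 0.17). Under either rescaling it stayed higher on food but below 1.5-fold in older flies. *GstT4*, the leading theta gene, was also higher on food, with 169 and 115 CPM on food and water in older flies and 194 and 153 CPM in younger flies (0.55 and 0.34). Of the *Ugt* genes, *Ugt36Ba* had a difference of 0.60 in older and 0.56 in younger flies, at levels of 2.65 CPM on food and 1.75 CPM on water in older flies and 3.26 CPM on food and 2.21 CPM on water in younger flies.

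**Figure D4:**
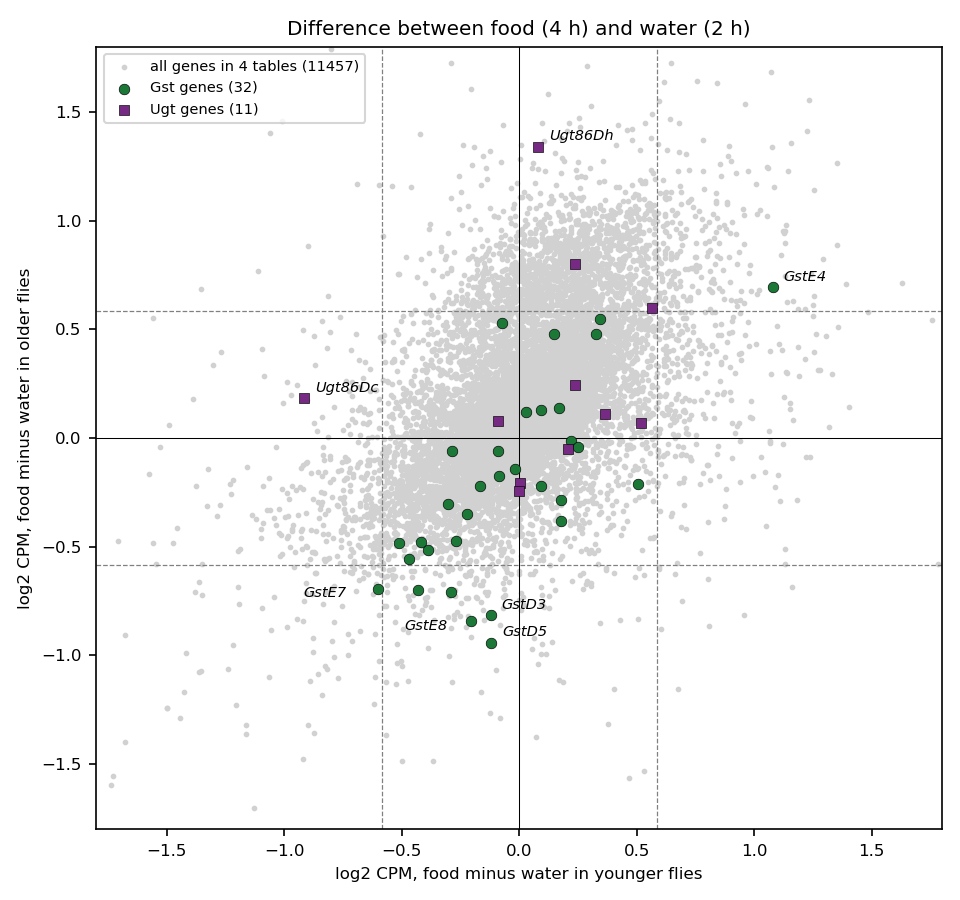
Food-minus-water difference in log2 CPM in younger flies (horizontal) and in older flies (vertical) for 32 *Gst* genes (circles), 11 *Ugt* genes (squares) and the 11457 genes listed in all conditions (gray, of which 26 lie outside the axes). Dashed lines mark a 1.5-fold difference. Of the *Gst* genes, 18 lie at the lower left, and *GstE4* lies at the upper right.

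Genes that supply or regulate these enzymes were taken from a list of 23, of which 21 were listed and 20 in all conditions. Between older and younger flies 8 of the 20 (40%, against 11.4% of all genes) were higher by more than 1.5-fold on both diets and 1 (5%, against 20.3%) was lower. After rescaling by the trimmed mean 5 were higher (25%, against 8.31% of all genes), and *cnc*, *Gclc* and *Ggt-1* were no longer among them. Between food and water 0 passed in either direction. The 8 include *GS* and *CG32495*, whose values are identical in each condition, so the pair is 1 measurement. The numbers above count it as 2 genes, in the 8, the 5 and the 20. The shares of 40% and 25% are therefore somewhat too high. *Keap1*, the inhibitor of Cnc, had 62.3 and 65.2 CPM in older flies on food and water, against 21.0 and 27.4 CPM in younger flies (1.57 and 1.25). *Trxr-1*, the thioredoxin reductase that also keeps glutathione reduced in flies, had 563 and 757 CPM in older flies, against 254 and 345 CPM in younger flies (1.15 and 1.13). *Gclc*, the catalytic subunit of the limiting enzyme of glutathione synthesis, had 219 and 332 CPM, against 137 and 181 CPM (0.67 and 0.88). The counting rule itself sets the older values of all 8 above the younger ones on each diet, so that order is no further result.

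The other genes of the list counted as higher in older flies were *GS* (0.85 on food and 0.79 on water), *cnc* itself (0.68 and 0.62), *sgl*, which makes UDP-glucuronate (0.77 and 0.67), and *Ggt-1*, a gamma-glutamyl transferase (1.07 and 0.60). *Gclm*, the modifier subunit, had differences of 0.48 and 1.01 and *maf-S*, the partner of Cnc, of 0.56 and 0.46. *TrxT*, a thioredoxin of the testis, was the gene counted as lower (-1.59 and -2.14), and the testis markers were lower in older flies as well. *UGP*, which makes UDP-glucose, had differences of -0.95 and -0.39 and *se*, an omega transferase of eye pigment synthesis, of -1.0 and -0.36. Differences were small for the membrane transferase *Mgstl* (0.05 and -0.16), *gfzf*, which carries a transferase domain (-0.16 and 0.10), the glycoprotein folding sensor *Ugt* (0.11 and -0.13) and the conjugate exporter *MRP* (0.33 and 0.20). *Cpr*, which passes electrons to cytochrome P450 enzymes, had 0.81 on food and 0.07 on water, *CG4829* had -0.47 and -0.36, and *CG1492* had 0.30 and -0.07. *dhd*, a thioredoxin of the ovary, was listed only in younger food, at 5.27 CPM.

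**Figure D5:**
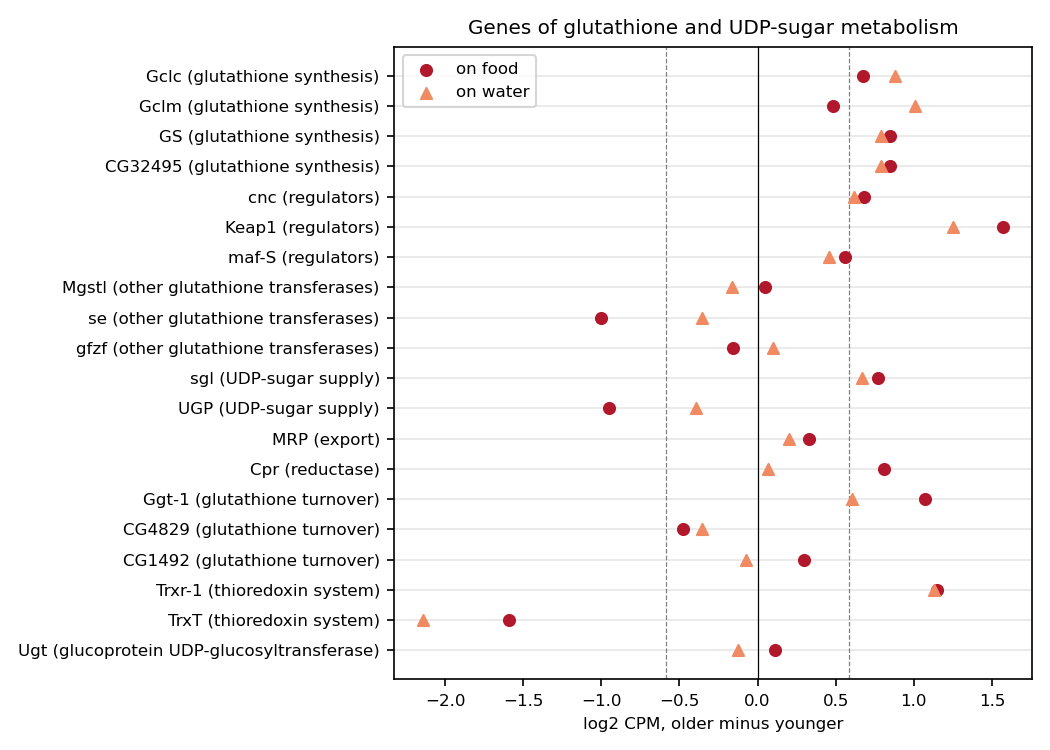
Older-minus-younger difference in log2 CPM on food (circles) and on water (triangles) for the 20 listed genes of glutathione and UDP-sugar metabolism found in all conditions. Dashed lines mark a 1.5-fold difference. *Keap1* and *Trxr-1* lie furthest to the right and *TrxT* furthest to the left on both diets.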

How the data were processed

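RNA from whole male flies was sequenced as 24 mRNA libraries. Per the authors, adapters were cut with Skewer, reads were mapped by STAR 2.4.2a, expected counts per gene were estimated by RSEM 1.2.22, and they removed low or empty genes and ran edgeR 3.10.5. Their processing notes name the dm3 build. Each of the authors' deposited tables (1 for each condition) gives a mean level as a log2 value (log2 CPM over 6 libraries), which was used. It also gives a log2 fold change, a likelihood ratio, a p-value and an FDR of injured against uninjured flies, which are the authors' own comparison and were not used. The table of older water has 292 empty rows. Depth per library is unknown.

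The levels were subtracted between tables, and counts used a fold of 1.5. Longest transcripts and neighbors came from BDGP6 (Ensembl) and names from RefSeq Release 6, by which all 47 members matched, and no coordinates are given because the builds differ. The count test planned for injury needs values per library and was not run. The members and lists were chosen with earlier results of these data known. Genes in the text are, for each family, the 5 highest per length, the 5 with the widest range, those missing from a table, the highest of each class and the listed pathway genes. Any others were chosen after their values were seen. Counting was tested on simulated data with differences well past the limit and narrower gaps between the diets than in these data. That test does not cover genes near the limit. Python 3.11.15, numpy 2.4.6, pandas 2.3.3 and matplotlib 3.10.9 were used.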

Additional observations from a re-analysis of the deposited data

How the results depend on the processing

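Counts of genes between older and younger flies depended on the fold and the scaling. The share of all genes was not counted at folds of 1.25 and 2. Counts at these folds, here and between food and water, therefore only describe the dependence on the setting. The 8 *Gst* genes higher in older flies became 13 at a fold of 1.25, 3 at a fold of 2 and 3 after scaling by a trimmed mean, an alternative added after the data were seen, as were the other folds. The 2 *Gst* genes lower in older flies became 4 at 1.25, 1 at 2 and 1 when each table was centered on its median. The 2 lower *Ugt* genes became 4 at 1.25, 0 at 2 and 1 when centered, and the 0 higher *Ugt* genes became 2 at 1.25 and 1 when centered. Between food and water, the 1 *Gst* gene higher on food became 3 at 1.25, 0 at 2, 0 when centered and 0 when scaled. The 1 lower on food became 6 at 1.25 and 0 at 2, and for the *Ugt* genes 1 was higher at 1.25. Of any size, the 7 *Gst* genes higher on food became 4 when centered, and the 1 lower *Ugt* gene became 3 when centered and 3 when scaled. The 18 *Gst* genes lower on food stayed at 18 or 19 in number. Under both rescalings 172 mean differences of single genes were recomputed, which moved them by at most 0.12, and no gene past 1.5-fold in both sets of libraries changed sign. Each rescaling moves all genes of a condition by the same amount, so at shifts of this size no such gene could change sign. *GstT2*, higher on food by 0.0745, went to -0.002 when centered and -0.014 when scaled. The trimmed mean lowered the levels of older food by 0.107 and raised those of older water, younger food and younger water (shifts of -0.022, -0.021 and -0.069). The medians used for centering were 4.71, 4.57, 4.77 and 4.76 log2 CPM in the same order.

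The median *Gst* level of 4.09 was 4.33 log2 CPM per kb over genes listed in all tables, and the *Ugt* median of 2.83 was 3.73 log2 CPM without division by length. The older-minus-younger difference of the summed *Gst* level, 0.03 on the log2 scale as a mean of both diets, was 0.54 without its most abundant member *GstS1* and 0.28 per kb. That of class D was 0.71, or 0.97 as a median of log2 values. That of class E was 0.52, or 0.22 as a median, and that of the *Ugt* genes was -0.33, or 0.0805 as a median. For class D and the *Ugt* genes these medians cover whichever genes each condition lists, and those sets differ between the ages. Over the genes listed in all conditions, the median difference of class D was 0.45 on food and 0.69 on water. For the *Ugt* genes it was -0.29 and -0.33, so 0.0805 is not a rise of the same genes. Class E was listed whole in all conditions, and its sum weights abundant genes more than its median does. *GstE1* alone had 248 and 365 CPM in older flies on food and water, against 88.3 and 122 CPM in younger flies. The class E sums were 1075 and 1407 CPM, against 788 and 936 CPM. The check without the most abundant member left out *GstE12*, so the part of *GstE1* was not tested. A minimum of 1 log2 CPM left all of these within their spread over the diets. Division by protein length was not run, and restricting differences to genes in all tables is the same as the reported count. No paired analysis was possible because the deposited means carry no replicate numbers. DESeq2, filters on counts, a fit of all libraries and leaving out replicates were planned for the effect of injury and were not run.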

Other observations

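The current RefSeq annotation gives a *Ugt* name to 15 further genes that the tables list under other names, 14 of them in all conditions. None was higher in older flies by more than 1.5-fold on both diets, against 11.4% of all genes. Lower were 4 (28.6%, near the 20.3% of all genes), namely *CG18869* (*Ugt305A1*), *CG5724* (*Ugt37A2*), *CG30438* (*Ugt50B3*) and *CG10178* (*Ugt301D1*). *CG18869* had 21.2 CPM in older food and 15.1 CPM in older water, against 51.6 CPM in younger food and 51.7 CPM in younger water (-1.28 and -1.78 on the log2 scale). *CG5724* had 14.7 and 8.28 CPM in older flies on food and water, against 30.8 and 26.2 CPM in younger flies (-1.07 and -1.66). *CG30438* had 165 and 126 CPM in older flies, against 276 and 291 CPM in younger flies, and it overlaps *TpnC4* on the opposite strand in that annotation. *CG10178* had 46.5 and 36.2 CPM, against 74.2 and 59.3 CPM.

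Between food and water, *CG10168* (*Ugt303B2*) was higher on food at both ages, by 0.75 in older and 0.66 in younger flies, at levels between 1.25 and 3.11 CPM. Its neighbors *CG10170* and *CG16732* were higher on food mainly in older flies, with 23.1 and 9.29 CPM on food, against 11.1 and 4.30 CPM on water. These genes were looked up after the members' values had been seen.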
